A study of Mus musculus with 2 samples.

Results

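CD8 alpha-beta T cells were taken here as droplet barcodes with at least 1 UMI (unique molecular identifier, 1 per captured RNA molecule) of Cd8b1, the gene of the CD8 beta chain, and no UMI of Cd4, of Trdc (the constant region of the delta receptor chain) or of the proliferation gene Mki67. The rule was applied to barcodes with at least 500 UMIs, at least 300 genes, at most 10% of UMIs from mitochondrial genes and at most 2 UMIs of the pseudogene Rps19-ps6. It found 1077 cells among 10599 kept barcodes, 538 of 5634 in the library labelled Control and 539 of 4965 in the library labelled SAP. Both libraries hold T cells of mouse ileum, captured on the 10x Genomics platform (3′ chemistry, version 3) with 5000 cells as the target of each. In the study, dendritic cells were given phages from healthy or SAP mice and cultured with gut T cells of GF mice, and T cells touched by the dendritic cells were marked with fucosyl-biotin (FucoID) to part them from bystanders. The labels spell out neither abbreviation, give no strain, sex or age, and leave unsaid which fraction, marked or not, was sequenced. They name the Control library by that word alone. Each group is 1 library, so no difference between the libraries has a replicate check, and no test was run. Cells of 1 library are not replicates, and every interval below is a 95% interval that covers counting error only.

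The CD8 coreceptor is either a dimer of alpha and beta chains, found on conventional CD8 T cells that recognise peptides on MHC class I, or a dimer of alpha chains alone, which many T cells of the gut epithelium carry whatever their receptor. T cells with the alpha-beta dimer reach the gut epithelium after priming in lymphoid tissue and are often called induced intraepithelial lymphocytes, while natural ones acquire their programme in the thymus and use adaptor proteins and receptors shared with NK cells. Both kinds are known for granzymes and for the chemokine Ccl5.

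CD8 alpha-beta cells made up 9.55% of kept barcodes in Control (exact binomial interval 8.79 to 10.3) and 10.9% in SAP (10.0 to 11.8). When every barcode was first thinned to 1000 UMIs, leaving out 501 shallower Control and 495 shallower SAP barcodes, the shares were 5.32% (4.72 to 5.97) and 6.26% (5.57 to 7.01). The intervals of the libraries overlap both ways. Where Cd8a and a receptor constant region were also required, the shares were 6.64% (6.0 to 7.32) and 8.08% (7.33 to 8.87), and these intervals do not overlap. The share depends on depth. Between 2000 and 4000 UMIs it was 11.5% in Control and 12.5% in SAP, and under 1000 UMIs it was 4.79% and 4.04%. CD8 alpha-beta cells had a median of 3307.5 UMIs in Control and 3530 in SAP, against 3122 and 3390 in the other kept barcodes, and median mitochondrial shares of 1.19% and 1.48% against 1.2% and 1.5%. They held 1809320 UMIs in Control and 1924158 in SAP. Of the barcode sequences, 6 occurred in both libraries, and 0 of these were CD8 alpha-beta cells.

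Background signal of Cd8b1 was read from barcodes with Trdc, since gamma-delta T cells of the gut seldom carry the beta chain. Cd8b1 was found in 80 of 2455 such barcodes in Control (3.26%, 2.59 to 4.04, median 3379 UMIs) and in 67 of 2213 in SAP (3.03%, 2.35 to 3.83, median 3705 UMIs). After thinning to 1000 UMIs the values were 1.32% and 1.43%, against 5.81% and 6.78% over all kept barcodes, which is 11.6% and 12.8% unthinned. The barcodes with more than 2 UMIs of Rps19-ps6, left out of the kept barcodes, held Cd8b1 in 1 of 35 and 2 of 66. Cd8b1 was thus more frequent over each library than in its Trdc barcodes, thinned and unthinned. How many CD8 alpha-beta cells rest on background RNA was not measured.

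Of the CD8 alpha-beta cells, 262 in Control (48.7%) and 249 in SAP (46.2%) had exactly 1 UMI of Cd8b1. Just inside the rule, these cells held 434 CPM of Cd6 (the UMIs of a gene per 1e+06 UMIs summed over a group) in Control and 441 in SAP. Just outside it lay barcodes with Cd8a and Trac but no Cd8b1, Cd4, Trdc or Mki67, called Cd8a-only here. They numbered 1144 and 943 and held 111 and 76.8 CPM of Cd6. Cells with 4 or more UMIs of Cd8b1 held 467 and 379 CPM of Cd6. The adaptor gene Fcer1g, however, had 196 and 155 CPM in cells with 1 UMI of Cd8b1 against 22.2 and 11.1 in cells with 4 or more, and the adaptor gene Tyrobp 128 and 87.1 against 11.1 and none. Cells just inside the rule thus differed from those with more Cd8b1 in these adaptors.

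**Figure D1:**
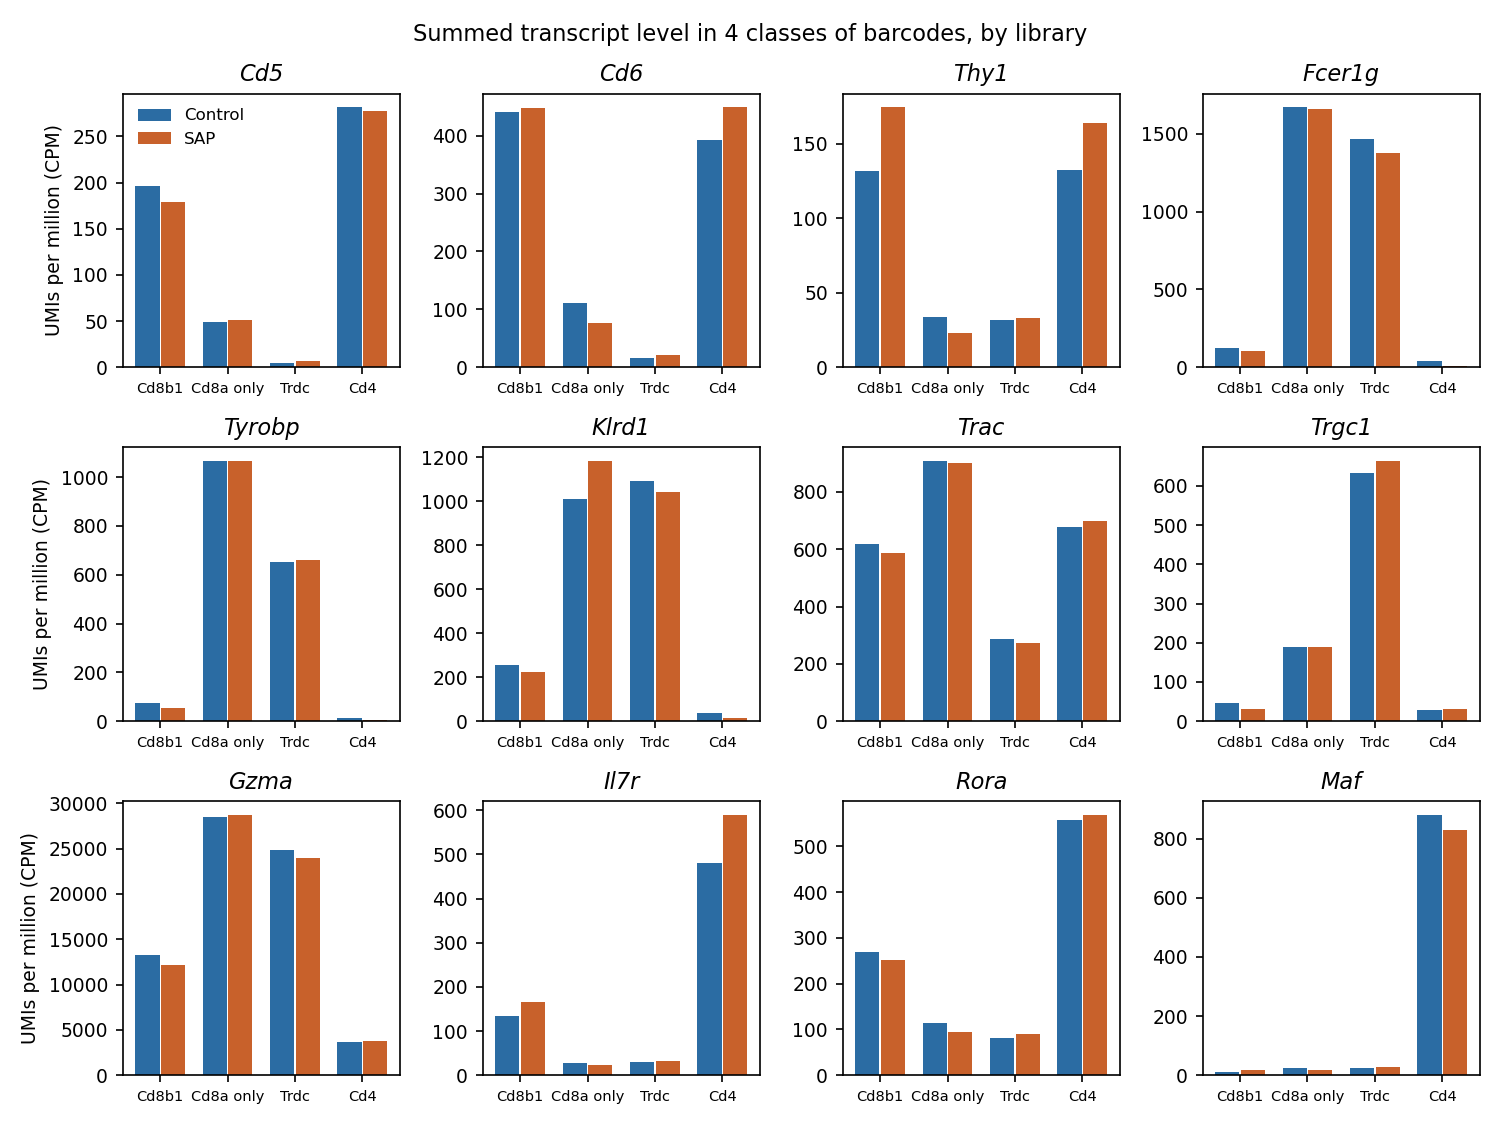
Summed levels (CPM, linear axes from 0) of marker genes in CD8 alpha-beta cells, Cd8a-only, Trdc and Cd4 barcodes, with 1 bar for Control and 1 for SAP and no replicate error. Cd6 and Cd5 are high in CD8 alpha-beta and Cd4 cells, and Fcer1g and Tyrobp are high in the Cd8a-only and Trdc barcodes.

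The label was checked against its markers and against receptor genes. Trac, the constant region of the alpha receptor chain, was found in 75.3% of CD8 alpha-beta cells in Control and 76.8% in SAP, and Trbc2, a constant region of the beta chain, in 88.7% and 90.4%. Cd3e, a signalling chain of the receptor complex, was found in 89.4% and 92.0%. Cd8a, the chain that the dimer also needs, was found in 71.4% and 76.1%, so 28.6% and 23.9% of the cells had no UMI of it. Thy1 was found in 29.6% and 39.3% and Cd5 in 33.5% and 34.1%. Zbtb7b, the factor that directs CD4 lineage choice, had 4 UMIs in Control and 1 in SAP. Of the markers that the rule did not use, Cd5, Cd6 and Thy1 were higher than in the other kept barcodes and Cd8a was not. Cd8a had 539 CPM in Control and 603 in SAP, against 608 and 661 in the other kept barcodes, 893 and 990 in Cd8a-only barcodes and 630 and 677 in Trdc barcodes. Cd8a-only barcodes were chosen by Cd8a, so their level of it was raised by that choice. Against the other kept barcodes as a whole, the summed level of Cd8a does not set the CD8 alpha-beta cells apart.

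Cells were chosen by 4 genes of the same counts, so what follows describes levels and supports no test of the choice. A gene was counted as measured when it had at least 20 CPM in either group compared and at least 50 UMIs over both, in each library. A gene under 20 CPM in 1 of the groups was measured only through the other group, so its side was set by the limit. The counts below, and the match of sides between the libraries, include such genes. Of 5314 genes measured against the other kept barcodes, 22 (0.414%) were at least 2-fold higher in CD8 alpha-beta cells in both libraries and 119 (2.24%) at least 2-fold lower. At 1.5-fold the numbers were 58 (1.09%) and 272 (5.12%). The median log2 ratio over all measured genes was -0.08 in Control and -0.10 in SAP. Of the 181 genes that were 2-fold apart in Control, 180 lay on the same side in SAP and 141 were 2-fold apart there too, and across genes, which are not independent, the log2 ratios of the libraries had a Pearson r of 0.80.

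Cd6 and Cd5 had the highest ratios, by the library nearer to 0. Cd6, a scavenger-family receptor that tunes signals from the T cell receptor, had 442 CPM (412 to 473) in Control and 447 (418 to 478) in SAP, against 106 and 103 in the other kept barcodes, or log2 ratios of 2.06 and 2.13. Cd5, a relative of Cd6 that dampens receptor signals, had 196 and 179 CPM against 56.3 and 52.4. Thy1, a surface glycoprotein of mouse T cells, had 132 and 175 CPM against 48.1 and 50.7. All 3 were higher in the CD8 alpha-beta cells of each library, with counting intervals of the ratio above 1. Cd5 had 4.26 and 6.78 CPM in Trdc barcodes and 282 and 277 CPM in Cd4 barcodes, so its level in CD8 alpha-beta cells lay between those of these groups. Of all CD8 alpha-beta cells, 65.4% and 66.2% had a UMI of Cd6, against 16.6% and 16.2% of the other kept barcodes, and after thinning the shares were 30.7% and 33.3% against 8.68% and 8.71%.

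The other genes among the 12 highest were Ms4a4b, Gramd3, BE692007, Slfn1, Ubash3a, Ms4a6b, Kcnn4, Cd226 and Abcb1b. Ms4a4b, a membrane protein of T cells, had 119 and 162 CPM against 36.8 and 39.8. Cd226, an activating receptor for nectin-family ligands, had 172 and 180 CPM against 64.2 and 72.9. Ubash3a, a phosphatase-family protein that restrains T cell receptor signalling, had 31.0 and 32.2 CPM against 12.2 and 11.5. Several of these genes were at similar or higher levels in Cd4 barcodes, where Ms4a4b had 196 and 233 CPM and Ubash3a 74.1 and 74.5. Kcnn4, a calcium-activated potassium channel, had 43.1 and 30.1 CPM against 14.4 and 12.1, and Abcb1b, a drug efflux pump, had 97.3 and 92.0 against 32.0 and 38.1. Ubash3a and Kcnn4 had under 20 CPM in the other kept barcodes, so they were measured only through the CD8 alpha-beta cells.

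The lowest genes, by the library nearer to 0, were Fcer1g, Itih5, Dnm3, Igha, Trf and Tyrobp, in that order, and only Fcer1g and Tyrobp of these had more than 13 UMIs per library in CD8 alpha-beta cells. Fcer1g, the gamma chain that passes signals from Fc and NK receptors through an ITAM motif, had 120 CPM (105 to 137) in Control and 101 (87.1 to 116) in SAP, against 1285 and 1223 in the other kept barcodes, which is 10.7-fold and 12.1-fold lower. Tyrobp, the DAP12 adaptor with the same task, had 75.7 and 52.0 CPM against 654 and 661, or 8.64-fold and 12.7-fold lower. Fcer1g was found in 9.48% and 8.53% of CD8 alpha-beta cells and in 62.5% and 60.7% of the other kept barcodes, and after thinning in 4.67% and 4.43% against 53.3% and 51.2%. Cd8a-only barcodes, which have no Trdc either, held 1674 and 1659 CPM of Fcer1g. Trgc1, a constant region of the gamma chain, had 47.0 and 30.1 CPM against 397 and 427 in the other kept barcodes and 189 in Cd8a-only barcodes of each library. The rule itself removed barcodes with Trdc from the CD8 alpha-beta cells and left them in the comparison. With cells chosen by Cd8b1 alone, the log2 ratio of Fcer1g was -2.47 in Control and -3.06 in SAP in place of -3.42 and -3.60, and that of Trgc1 was -1.97 and -2.49 in place of -3.08 and -3.82. With at least 2 UMIs of Cd8b1, Fcer1g was at -4.37 and -4.23.

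The remaining lowest genes had few UMIs in CD8 alpha-beta cells. With under 20 CPM there in both libraries, they were measured only through the other kept barcodes, and their side was set by the limit. Spry2, an inhibitor of receptor tyrosine kinase signalling, had 18.2 and 11.4 CPM against 137 and 136. Clnk, an adaptor of immune receptor signalling, had 9 UMIs in each library and 4.97 and 4.68 CPM against 39.3 and 45.5. Sh2d1b1, the EAT-2 adaptor of SLAM-family receptors in NK cells, had 3 and 7 UMIs. Itih5, Trf, Napsa and Tnfsf8 each had between 5 and 13 UMIs per library, and 85.7% of the Control UMIs of Tnfsf8 lay in 1 barcode. Dnm3, a dynamin, had no UMI in Control and 4 in SAP, and against the floor of 3 counts over the group it was at least 12.2-fold lower in Control. Igha, the heavy chain of IgA, was also among the lowest, with 12 and 5 UMIs, while the other kept barcodes held 133 CPM of it in Control and 24.4 in SAP.

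**Figure D2:**
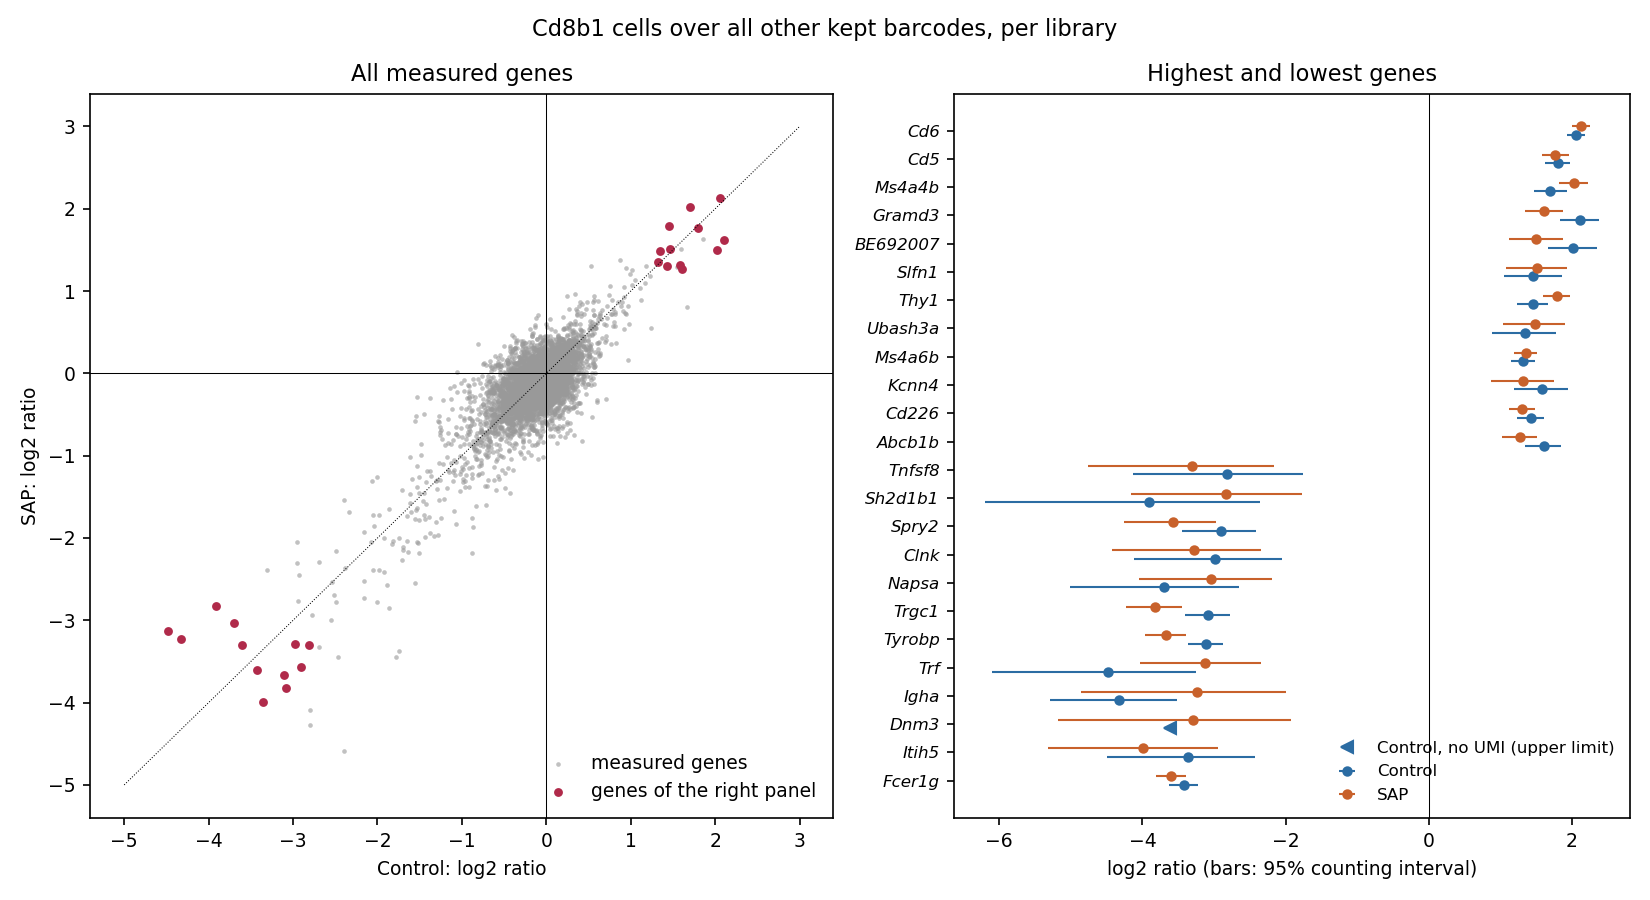
Log2 ratios of CD8 alpha-beta cells over all other kept barcodes, SAP against Control for every measured gene on the left, and with 95% counting intervals for the 12 highest and 12 lowest genes on the right. Cd6 is at 2.06 and 2.13 and Fcer1g at -3.42 and -3.60, and the arrow for Dnm3 marks an upper limit.

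Grouped by cell, 73.4% of CD8 alpha-beta cells in Control and 75.3% in SAP had Cd5, Cd6 or Thy1 and neither Fcer1g nor Tyrobp. In the other kept barcodes that class held 19.2% and 19.3%. The reverse class, with Fcer1g or Tyrobp and none of Cd5, Cd6 and Thy1, held 4.83% and 4.64% of CD8 alpha-beta cells against 59.2% and 58.1%. Both kinds of gene were found in 6.51% and 4.82% of CD8 alpha-beta cells, and neither in 15.2% of each library.

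Gene lists chosen with earlier results of these data known were read the same way. Of 13 measured genes for innate adaptors and natural intraepithelial lymphocytes, 10 were at least 1.5-fold lower in both libraries and 0 higher, with a median log2 ratio of -1.44 in Control and -1.77 in SAP. Over all measured genes 5.12% were that much lower and 1.09% that much higher, which holds beside every list count below. Among the lower genes of the lists, Itgax, Sh2d1b1, Klra5, Klra7, Entpd1, Tnfrsf4, Il17a, Maf, Irf8, Il18r1 and Gcnt1 had under 20 CPM in CD8 alpha-beta cells of both libraries. They were measured only through the other kept barcodes, so their side was set by the limit. Ikzf2, the transcription factor Helios, had 474 and 371 CPM against 1284 and 1268, and Kit, the receptor for stem cell factor, had 23.8 and 17.7 against 98.6 and 92.4. The measured genes of the list that were not 1.5-fold lower in both libraries were Hcst, Cd160 and Xcl1. Hcst, the DAP10 adaptor, had 723 and 648 CPM against 719 and 676. Of 20 Ly49 and CD94-NKG2 receptor genes 4 were measured, including Klra5 and Klra7. Klrd1, which encodes CD94, had 256 and 225 CPM against 900 and 917, and Klre1, a killer lectin-like receptor, had 27.1 and 8.84 against 90.8 and 91.5. Klra7 had 10 UMIs in Control and none in SAP, where it was at least 24.0-fold lower than in the other kept barcodes.

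Of 9 measured coreceptor and conventional T cell surface genes, Thy1, Cd5, Cd6 and Cd2 were at least 1.5-fold higher in both libraries and Cd7 was lower. Cd2, an adhesion receptor, had 44.8 and 44.2 CPM against 21.6 and 20.2, and Cd7, a surface protein of T and NK cells, had 912 and 802 against 1966 and 1985. Of 7 T cell receptor and CD3 genes, 0 passed 1.5-fold either way, with Trac at 618 and 586 CPM against 502 and 480 and Cd3g at 1704 and 1682 against 2314 and 2345. None of the receptor complex genes was thus 1.5-fold from the other kept barcodes in both libraries.

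Granzyme A and Ccl5 were found in nearly all CD8 alpha-beta cells. Of 10 measured cytotoxic genes, Gzmk was at least 1.5-fold higher and Gzma lower in both libraries, where 1.09% of all measured genes were higher and 5.12% lower. Gzma, the tryptase granzyme A, had 13281 CPM in Control and 12137 in SAP against 22818 and 22189, and was found in 91.6% and 90.5% of CD8 alpha-beta cells. Gzmk, granzyme K, had 117 and 114 CPM against 59.9 and 64.5. Gzmb, granzyme B, had 3862 and 3396 CPM against 4231 and 4166, and Prf1, perforin, had 34.8 and 40.0 against 38.7 and 37.9. Ccl5, a chemokine stored by memory T cells, had 36331 and 32903 CPM against 35842 and 32572 and was found in 99.1% of CD8 alpha-beta cells of each library. Free RNA of such abundant genes may add to these shares, which was not tested.

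Of 5 measured cytokine genes, 0 were higher and Il17a was lower in both libraries. Ifng, interferon gamma, had 266 and 309 CPM against 180 and 161, short of 1.5-fold in Control, and was found in 30.9% and 32.8% of CD8 alpha-beta cells. Of 5 chemokine genes 0 passed 1.5-fold in both libraries, with Ccl4 at 993 and 762 CPM against 638 and 639. Of 16 residency and homing genes, Cdh1, which encodes E-cadherin, was lower and 0 were higher. Itgae, the alpha chain of the integrin that binds E-cadherin, had 482 and 539 CPM against 550 and 606. Ccr9, the receptor for the small bowel chemokine Ccl25, had 217 and 191 CPM against 167 and 157. The median log2 ratio of the residency list was 0.03 in Control and -0.20 in SAP. Its summed level was lower in CD8 alpha-beta cells, at 5688 and 5401 CPM against 7096 and 7275.

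Genes of naive and central memory T cells were partly higher. Of 5 measured, Il7r, Klf2 and Klf3 were at least 1.5-fold higher in both libraries and 0 were lower, where 1.09% of all measured genes were higher. Il7r, the alpha chain of the interleukin 7 receptor, had 135 and 166 CPM against 67.9 and 72.1, and 27.8 and 23.7 in Cd8a-only barcodes. Klf2 and Klf3, factors linked to quiescence and trafficking, had 43.1 and 42.6 CPM against 26.9 and 28.2, and 43.7 and 64.4 against 23.9 and 24.9. Ccr7, a lymph node homing receptor, had 10 UMIs in Control and 17 in SAP. Il7r and Klf2 were higher still in Cd4 barcodes, at 481 and 590 CPM and at 145 and 72.6.

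Of 14 lineage transcription factors, Rora and Zeb2 were at least 1.5-fold higher and Nfil3 and Maf lower. Rora, an orphan nuclear receptor, had 269 and 252 CPM against 145 and 143, and Zeb2, a factor of terminal effector differentiation, had 166 and 156 against 87.2 and 93.8. Runx3, which directs CD8 lineage choice, had 368 and 398 CPM against 432 and 430. Of 8 measured inhibitory receptor genes, Lag3, Cd244a, Entpd1 and Vsir were lower and 0 higher, where 5.12% of all measured genes were lower, with Lag3 at 61.9 and 49.4 CPM against 169 and 163. Ctla4 had 141 and 163 CPM against 122 and 131. Of 10 costimulation genes, Cd226 was higher and the receptors Tnfrsf9, Tnfrsf4 and Tnfrsf18 were lower. Of 10 cytokine receptors, Il7r was higher and Il2rb, Il18r1 and Tgfbr1 were lower, with Il2rb, the chain shared by the receptors for IL-2 and IL-15, at 272 and 228 CPM against 538 and 509.

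Few genes of the remaining lists passed 1.5-fold in both libraries. Of 11 receptor signal and early activation genes, Irf8, Tnfrsf9 and Tnfrsf4 were lower and 0 higher, and of 3 measured gamma-delta receptor genes Trgc1 was lower. Ifi27l2a, 1 of 13 interferon-induced genes, was higher at 206 and 177 CPM against 114 and 97.2. Bcl2 and Bcl2l11, an inhibitor and a promoter of cell death, were lower among 9 survival genes, Bcl2 at 94.0 and 123 CPM against 219 and 263. Fosl2 was lower among 18 immediate early and heat shock genes, and Gcnt1 among 8 genes of fucosylation and its acceptor glycans. In the lists for cholesterol synthesis, NF-kB feedback, mitochondrially encoded genes and the cell cycle, 0 genes passed 1.5-fold in both libraries. The cell cycle list was read in cells chosen for the lack of Mki67.

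Against Cd8a-only barcodes, which also have Trac, 54 of 5347 genes (1.01%) were at least 2-fold higher in both libraries and 166 (3.1%) lower. Against Trdc barcodes the numbers were 44 of 5334 (0.825%) and 137 (2.57%). Against Cd4 barcodes, of which there were 183 and 158, they were 92 of 4685 (1.96%) and 86 (1.84%). Cd6 lay within 1.2-fold of the Cd4 barcodes, at 392 CPM in Control and 450 in SAP there, while Gzma had 3702 and 3788 CPM in Cd4 barcodes. Cd28, the main costimulatory receptor of naive T cells, had 66.3 and 96.1 CPM in CD8 alpha-beta cells, 444 and 469 in Cd4 barcodes and 13.2 and 13.6 in Cd8a-only barcodes.

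Levels varied with the number of Cd8b1 UMIs. In Control, Fcer1g had 196 CPM in cells with 1 UMI of Cd8b1, 86.1 with 2, 57.5 with 3 and 22.2 with 4 or more. In SAP the values were 155, 90.8, 86.0 and 11.1. Tyrobp had 128, 60.1, 15.3 and 11.1 CPM in Control, and 87.1, 43.5, 37.4 and none in SAP. Cd6 had 434, 443, 437 and 467 CPM in Control and 441, 471, 512 and 379 in SAP. The innate adaptors were thus lower in cells with more Cd8b1, and Cd6 showed no such order. The cells with 4 or more UMIs of Cd8b1 were 62 and 78, with median depths of 4149.5 and 4140 UMIs against 2903 and 3020 in the cells with 1.

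**Figure D3:**
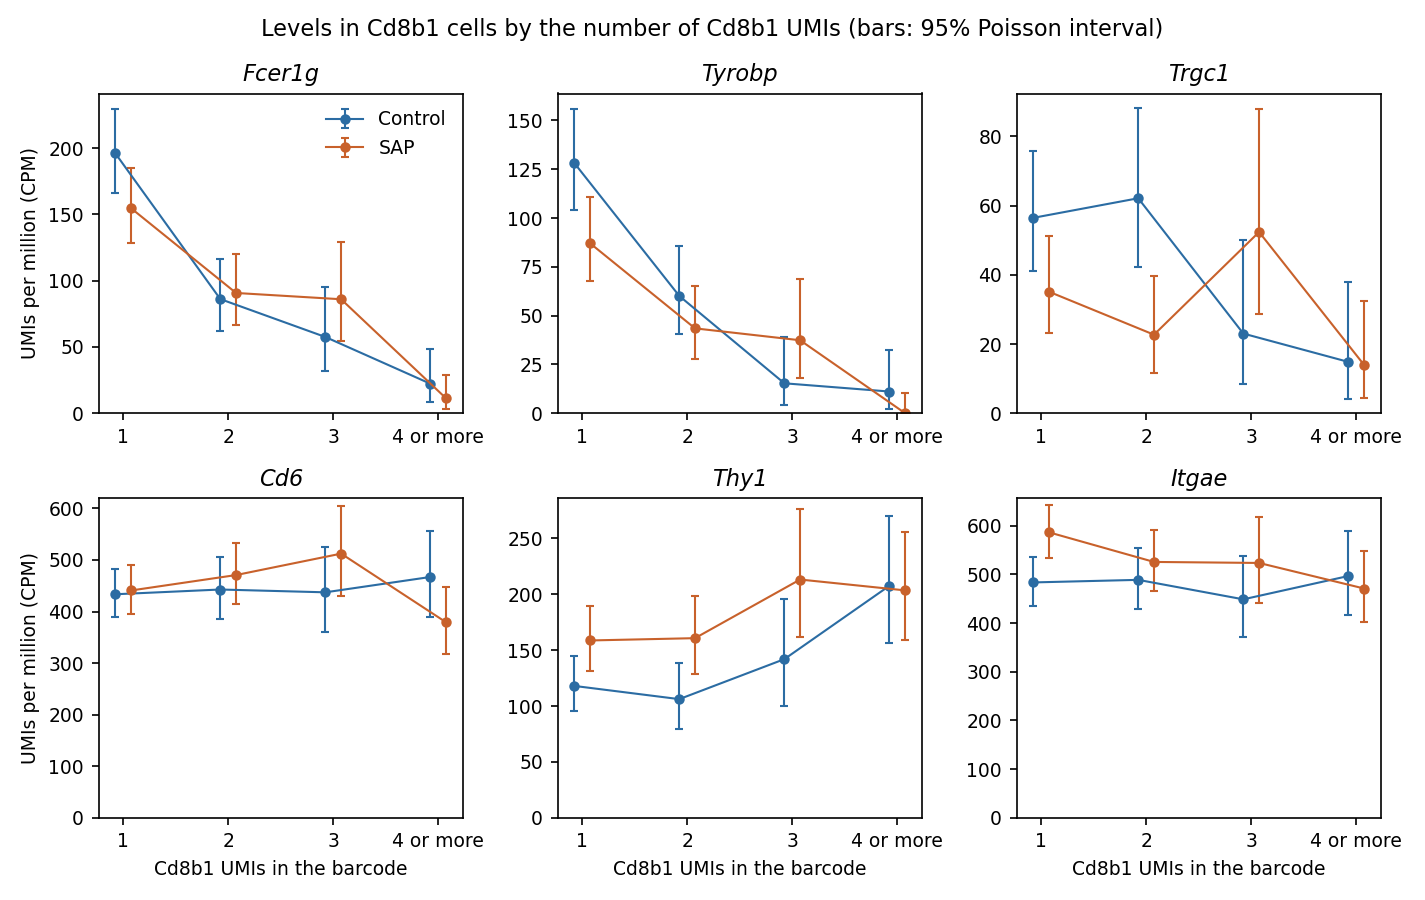
Levels (CPM) of marker genes in CD8 alpha-beta cells binned by their number of Cd8b1 UMIs (1, 2, 3, 4 or more), with 95% counting intervals, for Control and SAP. Fcer1g goes from 196 to 22.2 CPM in Control and from 155 to 11.1 in SAP, and Cd6 stays between 379 and 512 CPM in all bins.

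The 51 Control and 46 SAP cells with a UMI of Fcer1g differed from the others in several genes that the choice did not use. Tyrobp had 552 CPM in them in Control and 472 in SAP, against 6.3 and 2.9 in CD8 alpha-beta cells without Fcer1g. Cd6 had 252 and 239 CPM against 469 and 472, and Thy1 had 56.5 and 84.5 against 142 and 186. Klrd1 had 504 and 716 CPM against 220 and 167, and Gzma 19476 and 20292 against 12379 and 11185. These cells were thus nearer to the Cd8a-only barcodes in these genes, and their median depths of 4006 and 4299.5 UMIs were above the 3202 and 3421 of the rest. Scrublet's automatic threshold marked 0 barcodes as doublets in either library, so it did not work here and no doublets were removed. Of the 254 and 197 barcodes with the top Scrublet scores, 19 and 14 were CD8 alpha-beta cells, which made up 9.55% and 10.9% of all kept barcodes. The part of top-scored cells in the difference by Fcer1g was not tested.

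Cells with Tcf7, the memory and stem-like factor TCF1, made up 91 cells in Control (16.9%) and 105 in SAP (19.5%). In them, Gzma had 3192 CPM in Control and 3586 in SAP, against 16070 and 14747 in cells without Tcf7, and Gzmb had 865 and 1347 against 4690 and 4022. Ccl5 had 15293 and 19603 CPM against 42147 and 36964, and Itgae had 255 and 309 against 545 and 610. Il7r was higher in cells with Tcf7, at 242 and 269 CPM against 105 and 134, as were Cd2, at 76.6 and 75.6 against 36 and 34.6, and Xcl1, the chemokine that draws cross-presenting dendritic cells, at 454 and 249 against 98.8 and 134. Cd8b1 itself was close, at 544 and 607 CPM against 597 and 599. The cells with Tcf7 were deeper, with medians of 4063 and 4223 UMIs against 3155 and 3280, and Tcf7 was found in 5.64% and 8.29% of CD8 alpha-beta cells after thinning.

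**Figure D4:**
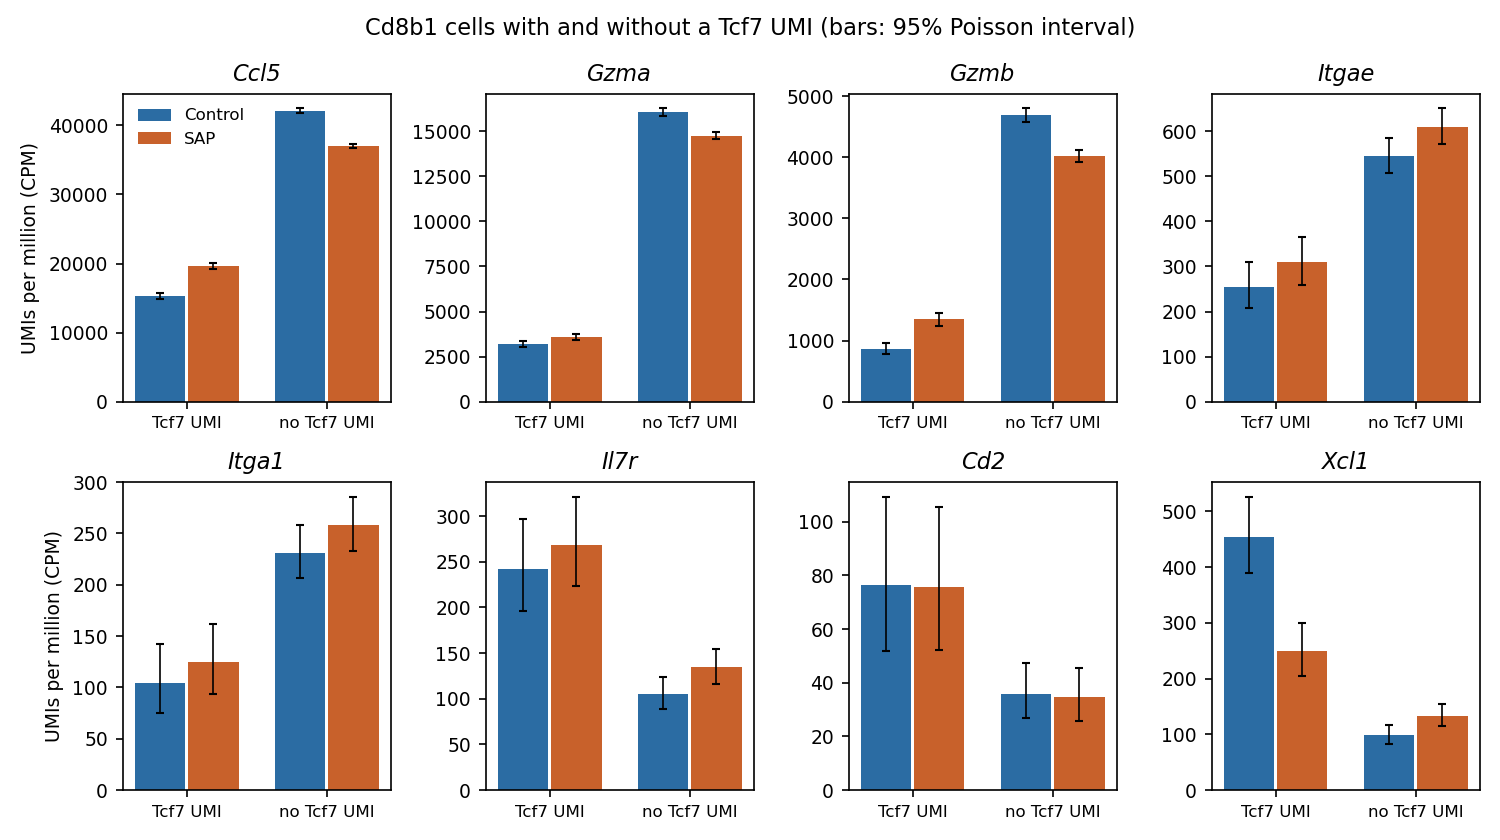
Levels (CPM, linear axes from 0) of named genes in CD8 alpha-beta cells with and without a UMI of Tcf7, for Control and SAP, with 95% counting intervals. Gzma, Gzmb, Ccl5 and Itgae are lower and Il7r, Cd2 and Xcl1 higher in the cells with Tcf7, in both libraries.

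The 45 Control and 51 SAP cells with no UMI of Gzma showed a like pattern. They had 210 and 245 CPM of Tcf7 against 70.6 and 61.6 in cells with Gzma, and 114 and 216 CPM of Gzmb against 4242 and 3774. Cd2 had 114 and 132 CPM against 37.7 and 33.7, and Itga1, the alpha chain of a collagen-binding integrin of resident cells, had 42.0 and 88.2 against 220 and 244. The cells without Gzma had medians of 3704 and 4217 UMIs against 3248 and 3424.5 in the others.

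Cells with Ifng numbered 166 in Control and 177 in SAP and had like depth to the rest, 3316 and 3495 UMIs against 3296 and 3537. Nr4a1, an immediate target of T cell receptor signals, had 621 and 587 CPM in them against 257 and 326. Gzma was close, at 12919 and 12542 CPM against 13448 and 11916. Xcl1 was higher with Ifng in Control, at 266 against 134 CPM, and lower in SAP, at 105 against 191.

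Receptor V segments were seen in few cells, since a 3′ library seldom reads into them. A beta chain V segment (Trbv) was found in 74 CD8 alpha-beta cells in Control (13.8%) and 94 in SAP (17.4%), and an alpha chain V segment (Trav) in 94 and 101. Among cells with a Trbv, Trbv15 was found in 18.9% in Control (10.7 to 29.7) and 16% in SAP (9.22 to 24.9), against 13.2% (10.4 to 16.5) and 9.5% (6.99 to 12.5) in the other kept barcodes. In Cd8a-only barcodes its share was 7.88% (4.57 to 12.5) and 7.51% (4.06 to 12.5). The intervals of Trbv15 overlap in each of these comparisons. Among cells with a Trav, Trav16n was found in 14 of 94 in Control (14.9%, 8.39 to 23.7) and 27 of 101 in SAP (26.7%, 18.4 to 36.5). In the other kept barcodes its share was 5.57% (3.99 to 7.54) and 2.86% (1.64 to 4.60). In Cd8a-only barcodes it was 7.32% (4.15 to 11.8) and 5.93% (2.59 to 11.3), an interval that overlaps that of the CD8 alpha-beta cells in Control but not in SAP. Trav16n has a near-identical copy, Trav16, between which reads may be split. Trav16 was found in 8.51% and 9.90% of CD8 alpha-beta cells with a Trav, against 11.4% and 11.6% of the other kept barcodes with a Trav. How far such a split of reads shaped the shares of Trav16n was not tested. The shares of Trav16n in Control and SAP have overlapping intervals.

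Between the libraries, CD8 alpha-beta cells were alike in most genes. Of 5338 genes measured, 263 (4.93%) were at least 1.5-fold higher in SAP and 112 (2.1%) lower, and 65.5% lay within 1.2-fold. The split moved with the scaling, to 167 higher and 173 lower with TMM factors, which shift every log2 ratio by -0.08. The counting interval lay above 1 for 508 genes (9.52%) and below 1 for 386 (7.23%), and both conditions were met by 199 (3.73%) and 88 (1.65%). Of the 375 genes past 1.5-fold, 226 had under 100 UMIs over both libraries. Of the 2489 genes with 200 UMIs or more, 33 were past 1.5-fold. Genes under 20 CPM in 1 library were measured only through the other, so their side was set by the limit. With 1 library per group, these counts compare the libraries, not the conditions.

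The markers were at like levels in both libraries apart from Thy1. Thy1 had 132 CPM in Control against 175 in SAP, which gives a ratio of 1.33 (1.12 to 1.58), against 1.05 in the other kept barcodes. Cd8a had a ratio of 1.12 (1.03 to 1.22) with 1.09 in the other kept barcodes, Cd6 of 1.01 (0.919 to 1.12) and Cd5 of 0.911 (0.783 to 1.06). Cd8b1, which the rule used, had 585 and 601 CPM.

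The 10 genes with the highest ratio of SAP over Control were Eaf1, Bcl7a, Caprin2, Zfp263, Sec16a, Fam126a, Foxred2, Nim1k, Rptor and Eea1, all of low count. Eaf1, a partner of transcription elongation factors, had 12 UMIs in Control against 41 in SAP, for a ratio of 3.21 (1.66 to 6.72). Rptor, the mTORC1 subunit Raptor, had 17 and 41 UMIs, a ratio of 2.27 (1.26 to 4.26). The 10 lowest were Klrc2, Foxp4, Rab19, Zbtb2, Pced1b, Pcyt1a, Tollip, Zdhhc5, Cbwd1 and Zfp821. Klrc2, the activating receptor NKG2C that pairs with CD94, had 47 and 16 UMIs, a ratio of 0.320 (0.169 to 0.575), while in the other kept barcodes it was 1.60. With at least 2 UMIs of Cd8b1 its log2 ratio was -0.36 in place of -1.64, short of 1.5-fold. Tollip, an adaptor of Toll-like receptor signalling, had 61 and 34 UMIs, a ratio of 0.524 (0.334 to 0.810). Pced1b and Tollip also fell short of 1.5-fold with at least 2 UMIs of Cd8b1, Pcyt1a and Zfp821 with the mean of single barcodes, and Zdhhc5 after thinning and with cells chosen by Cd8b1 alone. The log2 ratio of Rptor was 2.16 after thinning in place of 1.18.

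Among genes of the lists, Tnf, tumour necrosis factor, had 22.7 CPM in Control against 38.5 in SAP, which gives a ratio of 1.70 (1.14 to 2.55) against 1.05 in the other kept barcodes. Cd28 had a ratio of 1.45 (1.15 to 1.84) against 0.939. Cd44, an adhesion receptor of activated T cells, had 1.56 (1.14 to 2.16) against 0.904. These intervals lie above the ratio of the other kept barcodes, which was not tested. Tnfrsf9, the costimulatory receptor 4-1BB, had 40.9 and 22.9 CPM, a ratio of 0.559 (0.376 to 0.823) against 0.813. Trgc1 had a ratio of 0.642 (0.451 to 0.906) against 1.08, Ikzf2 of 0.781 (0.707 to 0.864) against 0.987 and Klre1 of 0.326 (0.176 to 0.576) against 1.01. For Klre1, 35.3% of the SAP UMIs lay in 1 barcode.

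Of the genes with at least 200 UMIs, chosen after their values were seen, Snhg5, a noncoding host gene of small RNAs, had 51.4 CPM in Control against 87.3 in SAP, which gives a ratio of 1.70 (1.31 to 2.21) against 1.11 in the other kept barcodes. Chst12, a sulfotransferase of chondroitin chains, had 85.1 and 48.3 CPM, a ratio of 0.568 (0.434 to 0.739) against 0.827. Mt1, a metallothionein, had a ratio of 0.604 (0.524 to 0.697), with 38.5% of its SAP UMIs in 1 barcode.

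Among chemokine, cytokine and granzyme genes, Ccl4 had 993 CPM in Control against 762 in SAP, which gives a ratio of 0.767 (0.716 to 0.822) against 1.0 in the other kept barcodes. Ifng had a ratio of 1.16 (1.03 to 1.31) against 0.897, Gzmb of 0.879 (0.850 to 0.910) against 0.985, Gzma of 0.914 (0.897 to 0.930) against 0.972 and Ccl5 of 0.906 (0.896 to 0.916) against 0.909. For Ccl5 the ratio in CD8 alpha-beta cells and in the other kept barcodes was the same within its interval. Fos, an immediate early gene, had 482 and 632 CPM, a ratio of 1.31 (1.2 to 1.43) against 1.15, and Cd160, a receptor of gut T cells for HVEM, had 1.32 (1.16 to 1.51) against 1.19.

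By list, the median log2 ratio of SAP over Control lay between -0.25 and 0.25 for every list with at least 4 measured genes. Of the lists with 3, the Ly49 and CD94-NKG2 receptors had a median of -1.62, with Klrc2 and Klre1 at least 1.5-fold lower, and -0.36 with at least 2 UMIs of Cd8b1. The gamma-delta receptor genes had 0.14 and the B and plasma cell markers 0.99, which became -0.014 after thinning. For the 11 measured innate adaptor genes the median was -0.25, with Cd200r1 and Plcg2 at least 1.5-fold lower. Over all measured genes 2.1% were that much lower, which holds beside this count and that of the Ly49 list. For the 15 cholesterol synthesis genes the median was 0.25, with 4 intervals that leave out 1. Over all measured genes the interval lay above 1 for 9.52% and below 1 for 7.23%. For the 11 mitochondrially encoded genes the median was 0.16, with mt-Co3 at a ratio of 1.60 against 1.28 in the other kept barcodes. For the 10 cytotoxic genes it was -0.08, and for the 18 immediate early and heat shock genes it was 0.07, or -0.01 with TMM factors.

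**Figure D5:**
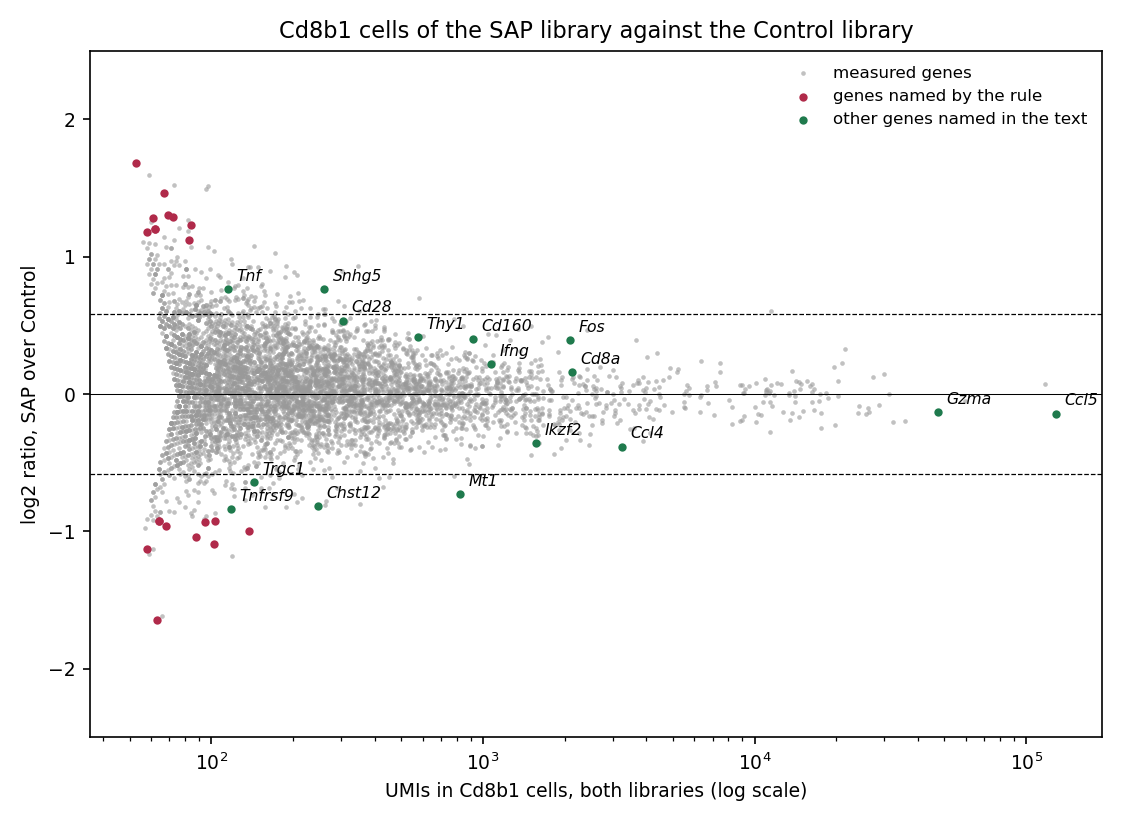
Log2 ratio of SAP over Control in CD8 alpha-beta cells for measured genes, against their UMIs over both libraries on a log axis. Dashed lines mark 1.5-fold. The vertical axis leaves out the most extreme ratios, among them those of Defa22, Defa24 and Defa30 at 0.028, 0.047 and 0.029. Genes far from 0 have few UMIs, and Ccl5 and Gzma, with the ratios 0.906 and 0.914, lie close to it.

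Genes of other cell types were at low levels. Of 10 B and plasma cell markers, 7 were found in CD8 alpha-beta cells of Control and 8 of SAP, with summed levels of 68.5 and 87.8 CPM against 1285 and 127 in the other kept barcodes, and Mzb1 was at 0 in both libraries. Of 12 epithelial markers, 6 and 5 were found, with 41.5 and 27.0 CPM summed, and Krt8, Krt19, Lypd8, Olfm4 and Phgr1 were at 0 in both. Of 12 myeloid and dendritic cell markers, 8 were found in each library, with 109 and 111 CPM, and Lyz2, Adgre1, C1qa and Flt3 were at 0. Of 8 NK and innate lymphoid markers, 6 and 5 were found, with 10.5 and 6.24 CPM. The part of these cell types in the results above was not tested. Single barcodes carried some of the signal: the defensin genes Defa22, Defa24 and Defa30 had 67, 120 and 97 UMIs in Control, at least 98.5% of each in 1 barcode, and of 45 UMIs of Cd74 in SAP, 88.9% were in 1 barcode.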

How the data were processed

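For each library the authors deposited raw counts, UMIs per gene and barcode, and per the file headers the software was Cell Ranger 7.1.0. In the submitters' processing notes mm10 and Seurat are listed too. The annotation version is not given in the sources used here, so no coordinates are printed. Members and gene lists were chosen with earlier results of these data known. The counts were summed over the cells of a group and divided by the group's UMIs (CPM). Intervals are exact Poisson (levels), exact binomial (shares) and exact conditional binomial (ratios), from scipy 1.17.1, and the ratio code was tested on simulated data. Named genes were the 12 highest and 12 lowest against other kept barcodes in both libraries, by the library nearer to 0. Between the libraries they were the 10 highest and 10 lowest whose interval leaves out 1, with at most 25% of UMIs in 1 barcode. Mitochondrial, ribosomal, Gm-numbered, Rik and segment genes were left out, while markers and up to 4 genes per list were always allowed. Further names in the list paragraphs, the splits of the cells and the genes read in single barcodes were chosen after their values were seen. Alternatives used edgeR 4.0.16 (TMM) and DESeq2 1.42.0 (size factors) for scaling only, and Scrublet (scanpy 1.11.5).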

Additional observations from a re-analysis of the deposited data

Results flagged for a closer look

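Some barcodes with Cd8b1 were not taken as CD8 alpha-beta cells. Among barcodes that failed the filters, 1 in Control and 6 in SAP had a UMI of Cd8b1. Among kept barcodes, 114 in Control and 95 in SAP had Cd8b1 and were left out of the CD8 alpha-beta cells because of Cd4, Trdc or Mki67. Those that failed the filters were in neither group of the comparisons. The 114 and 95 kept ones stayed among the other kept barcodes. The 80 and 67 of these with Trdc held 163 and 184 CPM of Cd6 and 865 and 514 CPM of Fcer1g, and 51 and 30 of them had exactly 1 UMI of Cd8b1. The 27 and 21 with Mki67 held 257 and 392 CPM of Cd6, 245 and 26.6 CPM of Fcer1g and 593 and 564 CPM of Trac.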

How the results depend on the processing

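The share of CD8 alpha-beta cells was 4.90% in Control and 5.84% in SAP with at least 2 UMIs of Cd8b1, 11.6% and 12.8% by Cd8b1 alone, 6.64% and 8.08% with Cd8a and a receptor constant region also required, and 5.32% and 6.26% after thinning. Genes at least 1.5-fold higher and lower in SAP numbered 263 and 112. They were 167 and 173 with TMM factors, 397 and 173 with the mean of single barcodes, 900 and 405 with no CPM limit, and 39 and 26 at 50 CPM. After thinning 173 were higher. Genes at least 2-fold higher and lower than in other kept barcodes numbered 22 and 119. They were 66 and 430 with no CPM limit, 13 and 56 at 50 CPM, and 54 higher against Cd8a-only barcodes. The median log2 ratio of the B and plasma cell list, SAP over Control, was 0.99 and became -0.014 after thinning. Cd8a was higher, with log2 ratios of 0.28 and 0.23 to other barcodes, where Cd8a itself was required. In the other settings the cause was not tested. Of the values of single genes under alternatives, 459 of the ratios to other barcodes moved by less than their interval and 91 by more, and 235 and 5 of the ratios between libraries. For list medians, which have no such interval, 460 values against other barcodes were counted as the same and 46 as moved. Between the libraries 237 were counted as the same, 2 as moved and 1 as reversed. No paired analysis was possible because each group has 1 library. Counting error is wide for the 226 of 375 genes past 1.5-fold that had under 100 UMIs.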
